A study of Mus musculus with 12 samples.

Results

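The genes described here are the protein-coding mouse genes whose symbol is Zfp followed only by digits. They were chosen for a mean of at least 100 normalized counts over the 12 libraries of the series, and Zfp37 and Zfp709 were named with them. The rule gave 262 genes out of 47642 listed, and out of 365 protein-coding genes that carry such a symbol. Because the threshold and the 2 named genes rest on measured values, the level of a member is a description, and Zfp37 and Zfp709, which were named for how they differ between genotypes, are given without a test. The study compared wild-type mIMCD3 cells with a Pkd1-/- line and a Pkd2-/- line, with 4 libraries for each genotype. mIMCD3 is a cell line from the inner medullary collecting duct of a mouse that carried the SV40 early region, so all 3 genotypes share that transgene. The Pkd1-/- cells are 1 clone made with CRISPR and the Pkd2-/- cells are 1 clone made with TALENs, and neither is shown against a second clone. RNA was taken from separate dishes 4 days after the cells were fully confluent, and the 4 dishes of each line with the purest RNA were sequenced. The p-values below measure the spread between dishes of 1 line, and an effect of the deleted gene cannot be told apart from other differences between clones.

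Zinc finger proteins of the Zfp series mostly carry runs of C2H2 fingers, short loops that hold a zinc ion and read DNA base by base. Many also carry a KRAB domain, which recruits Trim28 and, through it, the histone methyltransferase Setdb1 to silence the bound site, often a retroelement. KRAB zinc finger genes arose by repeated tandem duplication and lie in clusters on a few chromosomes, whereas other Zfp proteins bind RNA, act in ubiquitin transfer or regulate promoters. In the protein predicted for each member, the finger pattern was found 10 or more times in 142 of 262, and Zfp142 had the most with 36. No match was found in 6, among them Zfp36 and Zfp750. A KRAB A box pattern was found in 125 members.

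The libraries held 25966273 to 28027792 normalized counts each, which correspond to an estimated 23200000 to 30300000 reads on genes. Pkd1 itself fell by 4.21 on the log2 scale in the Pkd1-/- libraries. Pkd2 did not fall in the Pkd2-/- libraries (log2 difference 0.01), and since the deletion there removes only a part of the exons, the total count of Pkd2 does not check that label. Of 13 collecting duct markers, 9 had a mean of at least 100, but Aqp2, Aqp3 and Avpr2 were under 10. Among 13 markers of other kidney cell types 11 were under 10, and the summed count of that list was 571 to 605 in wild-type, 507 to 622 in Pkd1-/- and 777 to 1233 in Pkd2-/- libraries. The 2 markers above 10 moved in opposite directions. Lrp2, of the proximal tubule, had a mean of 508 in wild-type against 46.3 in the Pkd1-/- line and stood at 935 in the Pkd2-/- line, and Atp6v1b1, of intercalated cells, had 57.0, 513 and 1.00 in this order. The collecting duct marker Gata3 had 227, 48.5 and 354. The part of these differences in the results below was not tested.

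Of the 365 Zfp genes, 343 had at least 1 count, 324 were tested, and 104 stayed below the threshold. Just inside it lay Zfp992 (mean 100.1), Zfp750 (102) and Zfp524 (105), and just outside lay Zfp14 (98.5), Zfp69 (92.7) and Zfp558 (92.7). Of the 260 members other than Zfp37 and Zfp709, 253 had a mean of at least 100 in every genotype. Zfp750 and Zfp9 passed only through genotypes in which they were high, so that a difference among genotypes was built into their selection, and they too are given as a description with no test. Zfp647 (means of 186.5, 217.75 and 91.5 in wild-type, Pkd1-/- and Pkd2-/-) and Zfp28 (128.5, 73.0 and 138.5) were also under 100 in 1 genotype. Their selection was tied to their differences as well, and no p-value is given for them. Members were of modest abundance. Per kb of annotated exon their median was 120 normalized counts, against 294 for 10348 other genes whose mean was 100 or more. The most abundant per kb was Zfp706 at 2039 normalized counts per kb, followed by Zfp91, a ubiquitin ligase of non-canonical NF-kappaB signalling, at 1469. Next came Zfp36 (tristetraprolin), which binds AU-rich mRNAs and speeds their decay, at 1311, and then Zfp207, which loads Bub3 onto kinetochores, at 1001. Zfp740 followed at 974.

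The comparison of Pkd1-/- with wild-type cells asked which members differ between these lines. Few changed by much. In bulk RNA, fewer cells that express a gene and less RNA per cell cannot be told apart. A gene was called at an adjusted p under 0.05 and a change of at least 2-fold, by limma on log2(normalized count + 1) over all 18552 genes tested. By this rule 4 of the 260 members (1.54%) were called, against 6.24% of all genes tested (2.96% higher, 3.28% lower). The 2 lower ones were Zfp605 and Zfp704. The 2 higher ones were Zfp750 and Zfp9, which had to differ by their selection. Without these, 2 of 258 members (0.775%) were called, both lower. Among the 10649 genes whose mean was 100 or more, here called abundant genes, 2.84% were called. Without the 2-fold limit 19 members (7.31%) were higher and 41 (15.8%) lower. The same shares were 13.6% and 13.5% of all genes, or 27.1% together, and 18.6% and 18.4% of abundant genes. The 19 include Zfp9 and Zfp750 and the 41 include Zfp28, whose selection was tied to their differences. The median log2 fold change of the members was -0.06, that of all genes tested 0.01. Within 0.5 on the log2 scale lay 252 members (96.9%), against 75.9% of all genes and 90.9% of abundant genes.

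Between Pkd2-/- and wild-type cells Zfp871 rose by the same rule and Zfp467 and Zfp647 fell, 3 of 258 members (1.16%). Zfp647 is counted among the 3 although its selection was tied to its difference. With Zfp9, which was higher but had to differ by its selection, 4 of 260 (1.54%) were called, against 9.62% of all genes (3.24% higher, 6.38% lower) and 5.68% of abundant genes. Without the 2-fold limit 61 members (23.5%) were higher and 49 (18.8%) lower, 42.3% together. All genes had 20.0% higher and 22.3% lower, also 42.3% together, and abundant genes 30.2% and 29.1%. The 61 include Zfp9 and the 49 include Zfp750 and Zfp647, whose selection was tied to their differences. The median of the members was 0.02, and 227 of them (87.3%) were within 0.5, against 68.5% of all genes and 81.5% of abundant genes. In neither comparison with wild-type did 120 of the 260 members pass the test.

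In the direct comparison of Pkd2-/- with Pkd1-/- cells 5 members were called, with Zfp605, Zfp704 and Zfp697 higher and Zfp750 and Zfp647 lower in Pkd2-/-. This is 1.92% of the members, and 4 of 258 (1.55%) without Zfp9 and Zfp750, against 11.8% of all genes (4.53% higher, 7.23% lower) and 6.97% of abundant genes. The 4 include Zfp647, whose selection was tied to its difference. At an adjusted p under 0.05 alone 80 members (30.8%) were higher and 39 (15.0%) lower, beside 21.9% and 24.3% of all genes (46.3% together) and 31.7% and 31.4% of abundant genes. The 80 include Zfp28 and the 39 include Zfp750 and Zfp647, whose selection was tied to their differences. The median of the members was 0.09, and 223 of them (85.8%) were within 0.5, against 65.0% of all genes and 77.6% of abundant genes. The libraries of the 2 groups did not overlap for 21.9%, 34.6% and 45.0% of the members in the 3 comparisons, in the order given, against 27.1%, 37.2% and 41.8% of all genes and 37.8%, 53.0% and 59.0% of abundant genes. The comparisons share libraries, wild-type or mutant, and are not independent of each other.

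**Figure D1:**
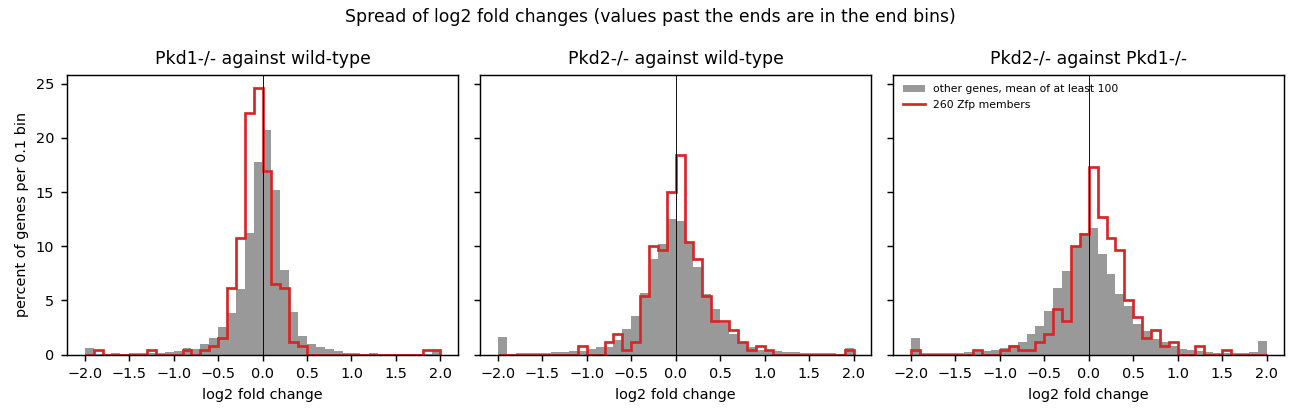
Share of genes (percent, vertical axis) in each 0.1-wide bin of log2 fold change (horizontal axis) in the 3 comparisons, for the 260 members (red line) and the other abundant genes (grey). The members are gathered around 0, with 96.9% of them within 0.5 in Pkd1-/- and 87.3% in Pkd2-/- against wild-type.

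Zfp709, a KRAB zinc finger gene on the plus strand at chr8:71882019-71895727 (GRCm38), was close to silent in wild-type cells. Its normalized counts were 4, 2, 2 and 1 in the wild-type libraries, 52, 66, 80 and 66 in Pkd1-/- and 65, 35, 59 and 49 in Pkd2-/-. All 8 mutant libraries lay above all wild-type libraries, and the mutants overlapped each other. Summed over 4 libraries, 264 normalized counts in Pkd1-/- stood against 9 in wild-type, a ratio of 29.3, and 208 in Pkd2-/- gave a ratio of 23.1. No interval is given for these ratios, because the gene was named for this difference, and the low wild-type counts make them imprecise. It was the only member that differed by 8-fold or more between 2 genotypes without overlap, as 1.71% of abundant genes and 3.35% of all genes did, and it was named in the rule for that pattern. Its own mean over 12 libraries was 40.1, below the threshold.

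Zfp37, whose product has 12 matches of the finger pattern, was the other gene named in the rule, and it was lower in both mutants. It lies on the minus strand at chr4:62189540-62231047. The wild-type libraries held 352, 277, 266 and 349 normalized counts, the Pkd1-/- libraries 104, 95, 138 and 101, and the Pkd2-/- libraries 139, 159, 143 and 148. Every mutant library was below every wild-type library, and the Pkd2-/- libraries were all above the Pkd1-/- libraries. Means were 311 ± 45.9 (SD, n = 4) in wild-type, 110 ± 19.4 in Pkd1-/- (log2 difference -1.50) and 147 ± 8.66 in Pkd2-/- (-1.06). The 13 other genes within 1 Mb of it, with a mean of at least 10, had medians of 0.00 and 0.04.

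The promoters of some members with large changes are shown with their CG dinucleotides, the sites of DNA methylation, which was not measured in the data used here. They are taken from RefSeq (GRCm38.p6), run from 250 bases before the start to 50 bases after it, and have each CG in capitals. Promoters were found for 218 of the 262 members, and none were at hand for Zfp9, Zfp647, Zfp704 and Zfp750. Zfp709 (plus strand, chr8:71881818-71882117) and Zfp37 (minus strand, chr4:62208497-62208796) differed in both mutants. Zfp605 (plus strand, chr5:110109842-110110141) fell in Pkd1-/- cells and Zfp871 (minus strand, chr17:32788238-32788537) rose in Pkd2-/- cells.
Zfp709: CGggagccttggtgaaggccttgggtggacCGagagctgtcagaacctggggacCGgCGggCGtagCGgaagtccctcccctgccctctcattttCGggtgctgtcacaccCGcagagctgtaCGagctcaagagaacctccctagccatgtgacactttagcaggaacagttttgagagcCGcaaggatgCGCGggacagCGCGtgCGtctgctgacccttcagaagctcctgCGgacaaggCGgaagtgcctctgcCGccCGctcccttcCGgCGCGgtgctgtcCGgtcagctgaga
Zfp37: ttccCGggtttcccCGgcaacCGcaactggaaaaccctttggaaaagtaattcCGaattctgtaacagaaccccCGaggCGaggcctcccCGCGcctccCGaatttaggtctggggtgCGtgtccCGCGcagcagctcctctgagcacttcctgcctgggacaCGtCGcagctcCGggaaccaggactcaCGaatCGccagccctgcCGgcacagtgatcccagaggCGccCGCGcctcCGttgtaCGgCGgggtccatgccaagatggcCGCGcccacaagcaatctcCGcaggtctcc
Zfp605: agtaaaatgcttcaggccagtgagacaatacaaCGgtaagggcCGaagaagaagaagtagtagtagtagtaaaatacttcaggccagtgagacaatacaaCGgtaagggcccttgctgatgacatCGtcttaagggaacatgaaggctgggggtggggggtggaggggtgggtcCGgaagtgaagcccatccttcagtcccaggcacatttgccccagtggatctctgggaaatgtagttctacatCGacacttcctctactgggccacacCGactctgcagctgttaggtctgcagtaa
Zfp871: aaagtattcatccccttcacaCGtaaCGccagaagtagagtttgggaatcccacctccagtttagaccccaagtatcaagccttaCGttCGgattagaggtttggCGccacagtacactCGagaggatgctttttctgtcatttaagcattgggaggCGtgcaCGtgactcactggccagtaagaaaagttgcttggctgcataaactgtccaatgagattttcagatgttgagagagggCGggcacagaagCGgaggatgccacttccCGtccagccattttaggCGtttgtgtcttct
The windows held 23 CG in Zfp709, 27 in Zfp37, 7 in Zfp605 and 12 in Zfp871, and the window of Zfp467 held 18. Over the 218 members the median was 15 and the range 1 to 59. Over all 27025 promoters the median was 7, and over 8237 promoters of abundant genes it was 22. At least 10 CG were present in 73.9% of the members' promoters, 44.0% of all promoters and 89.1% of those of abundant genes. Zfp709, higher in both mutants, and Zfp37, lower in both, thus had windows with more CG than the members' median. They exceeded the median of abundant genes by less. The window of Zfp37 lies well inside the annotated span of the gene, and which start these cells use was not tested.

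Zfp9, a KRAB gene at chr6:118461950-118479320, was higher in both mutants. Its normalized counts were 36, 52, 35 and 32 in wild-type, 130, 126, 124 and 165 in Pkd1-/- and 141, 145, 155 and 190 in Pkd2-/- libraries. All mutant libraries were above all wild-type libraries, and the 2 mutants overlapped. The log2 difference from wild-type was 1.80 ± 0.16 (SE) in Pkd1-/- and 2.01 ± 0.16 in Pkd2-/- cells, while the 12 other genes within 1 Mb had medians of -0.07 and 0.10.

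Zfp750, whose human counterpart acts in epidermal differentiation, was higher in Pkd1-/- cells. Counts were 44, 38, 36 and 52 in wild-type, 241, 195, 259 and 235 in Pkd1-/- and 21, 27, 36 and 37 in Pkd2-/- libraries. The Pkd1-/- libraries stood above all others, and the wild-type and Pkd2-/- libraries overlapped. The log2 difference from wild-type was 2.43 ± 0.19 (SE) in Pkd1-/- and -0.50 ± 0.19 in Pkd2-/-, and Pkd2-/- differed from Pkd1-/- by -2.93 ± 0.19. The gene lies on the minus strand at chr11:121510978-121519333 and overlaps Tbcd on the opposite strand. Without a stated strand setting, reads of the 2 genes cannot be told apart where they overlap.

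Zfp605, at chr5:110110092-110129794, fell most among the tested members in Pkd1-/- cells. It had 483, 360, 414 and 437 normalized counts in wild-type, 100, 121, 129 and 102 in Pkd1-/- and 301, 350, 324 and 354 in Pkd2-/- libraries. No library of 1 genotype reached the range of another, with wild-type highest and Pkd1-/- lowest. It fell by 1.90 ± 0.11 on the log2 scale in Pkd1-/- (adjusted p = 1.41e-10, limma), while its change in Pkd2-/- was -0.34 ± 0.11 (adjusted p = 0.0148). That p was 0.0522 without Pkd2-/- replicate 1 and 0.0612 without wild-type replicate 1. The mutants differed by 1.55 ± 0.11 (adjusted p = 7.56e-10). About 0.1 Mb away, Zfp932, a KRAB gene that acts on retroelements, had means of 281 ± 17.8, 188 ± 10.9 and 289 ± 31.4 in wild-type, Pkd1-/- and Pkd2-/- cells. It fell by 0.58 ± 0.09 on the log2 scale in Pkd1-/- (adjusted p = 0.0001, limma), but 45.2% of its 50-base stretches also occur in another gene, so that its counts are uncertain. The other genes within 1 Mb had a median of -0.10 around Zfp605 and -0.09 around Zfp932 in Pkd1-/- cells.

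Zfp704, on chromosome 3 at 9427020-9610085, had the highest counts among the called members. Wild-type libraries held 2614, 2141, 2370 and 2951, Pkd1-/- libraries 1018, 962, 1072 and 1232, and Pkd2-/- libraries 2356, 2526, 2255 and 3085 normalized counts. The Pkd1-/- libraries were all below the others, and wild-type and Pkd2-/- overlapped. The gene fell by 1.23 ± 0.10 on the log2 scale in Pkd1-/- (adjusted p = 2.34e-08, limma), and the difference in Pkd2-/- was 0.02 ± 0.10 (adjusted p = 0.899). Pkd2-/- exceeded Pkd1-/- by 1.25 ± 0.10 (adjusted p = 6.5e-09).

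Smaller decreases in Pkd1-/- cells were found for Zfp28 (log2 difference -0.81 ± 0.14), Zfp462 (-0.65 ± 0.12) and Zfp449 (-0.51 ± 0.12). The adjusted p-values of Zfp462 and Zfp449 were 0.000437 and 0.00422 by limma. Zfp462 is a large chromatin-associated protein that is needed in development, and 33 finger matches were found in it. Its normalized counts were 796, 562, 739 and 859 in wild-type, 388, 484, 461 and 546 in Pkd1-/- and 868, 882, 801 and 1062 in Pkd2-/- libraries. Its Pkd1-/- libraries lay below both other groups, which overlapped. Zfp449 was also lower in Pkd2-/- cells (-0.60 ± 0.12, adjusted p = 0.00061). Zfp28 differed by 0.12 ± 0.14 in Pkd2-/- cells, and 16% of its 50-base stretches occur in another gene.

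**Figure D2:**
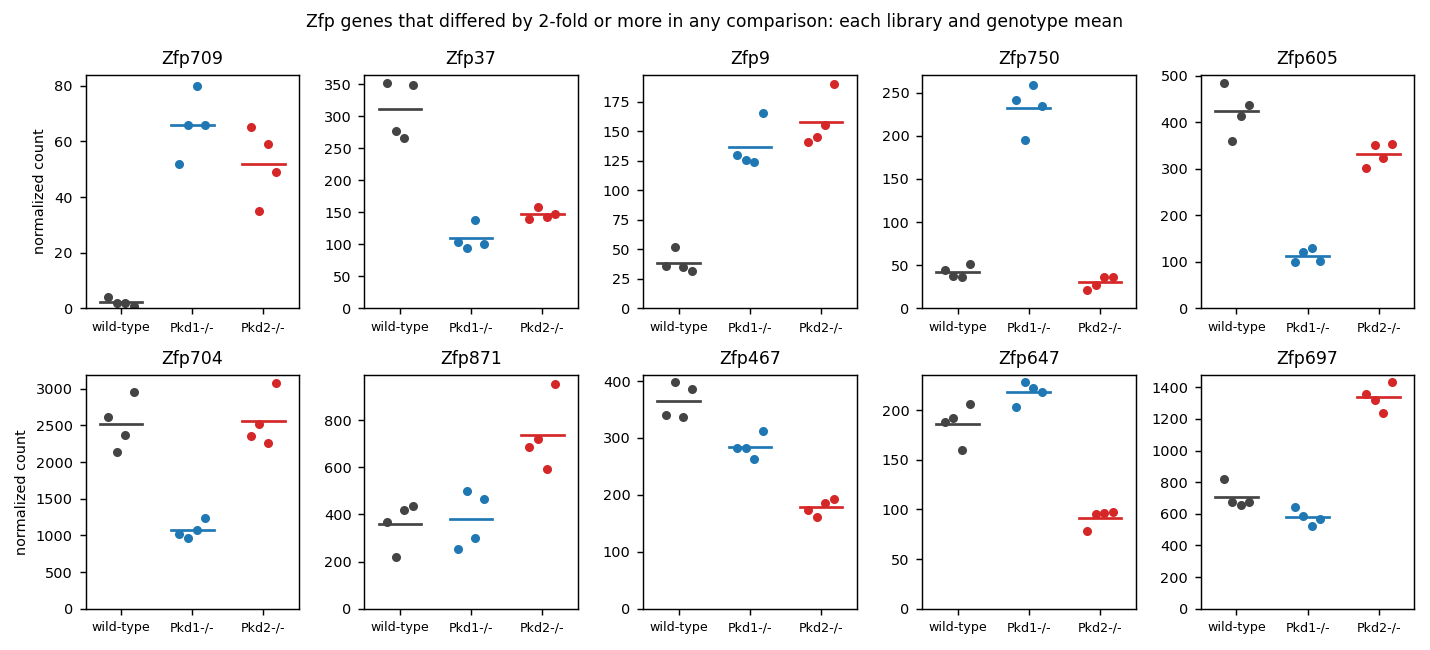
Normalized counts (vertical axis, from 0) of the 10 members that differed by 2-fold or more in any comparison, in each of 4 libraries of wild-type (grey), Pkd1-/- (blue) and Pkd2-/- cells (red), with bars at the genotype means. Zfp709 and Zfp9 are high in both mutants, Zfp37 is low in both, and the remaining 7 differ by 2-fold from wild-type in 1 mutant or between the mutants.

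In Pkd2-/- cells Zfp871, a KRAB gene at chr17:32765496-32788287, rose. Libraries held 369, 219, 420 and 434 normalized counts in wild-type, 255, 499, 298 and 465 in Pkd1-/- and 685, 719, 591 and 955 in Pkd2-/-. All Pkd2-/- libraries were above all others, but the spread within each genotype was wide. The log2 difference was 1.06 ± 0.22 (adjusted p = 0.000558, limma) and lost the 2-fold call at 0.83 without wild-type replicate 2, the library with 219, and at 0.93 without Pkd2-/- replicate 4.

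Zfp467 and Zfp647 fell in Pkd2-/- cells. Zfp467, at chr6:48427697-48445825, had 340, 399, 336 and 386 normalized counts in wild-type, 282, 282, 263 and 313 in Pkd1-/- and 174, 161, 185 and 192 in Pkd2-/- libraries. The 3 genotypes were ordered without overlap. It fell by 1.03 ± 0.09 on the log2 scale in Pkd2-/- (adjusted p = 3e-08, limma), and the value was -0.98 without Pkd2-/- replicate 2 and -0.99 without wild-type replicate 2. In Pkd1-/- the difference was -0.36 ± 0.09 (adjusted p = 0.00636).

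Zfp647, a KRAB gene at chr15:76910371-76925448, had 188, 192, 160 and 206 in wild-type, 203, 228, 222 and 218 in Pkd1-/- and 78, 95, 96 and 97 in Pkd2-/- libraries. The Pkd2-/- libraries were below all others. The gene fell by 1.02 ± 0.11 (SE) on the log2 scale, with -0.94 without Pkd2-/- replicate 1 and -0.97 without wild-type replicate 4. Against Pkd1-/- the difference was -1.25 ± 0.11.

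Zfp697 came close to the 2-fold limit in Pkd2-/- cells. Its counts were 820, 672, 653 and 675 in wild-type, 640, 584, 524 and 568 in Pkd1-/- and 1359, 1319, 1240 and 1433 in Pkd2-/- libraries. No genotype overlapped another. The log2 difference was 0.93 ± 0.08 from wild-type (adjusted p = 1.47e-08, limma), 1.00 without wild-type replicate 1, and 1.21 ± 0.08 from Pkd1-/- (adjusted p = 2.63e-10). Its annotated span, chr3:98382461-98753812, covers genes of the Hsd3b family on the opposite strand.

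Zfp106, Zfp91 and Zfp408 were also higher in Pkd2-/- cells, and they lie on the chromosomes whose genes were higher there in general. Zfp106 is an RNA-binding protein. Its counts were 3327, 2831, 3190 and 3536 in wild-type, 3512, 4109, 3824 and 4346 in Pkd1-/- and 5517, 6229, 5705 and 6928 in Pkd2-/- libraries, and it was 0.92 ± 0.08 higher in Pkd2-/- than in wild-type (adjusted p = 1.85e-08, limma). Zfp91 had 12198, 10665, 10996 and 12299 in wild-type against 19252, 20781, 19441 and 21432 in Pkd2-/- (0.81 ± 0.05, adjusted p = 5.54e-10). Pkd2-/- libraries lay above all wild-type and Pkd1-/- libraries for both genes. Zfp408 rose from 504 ± 29.3 to 873 ± 57.4 (SD, n = 4; log2 difference 0.79 ± 0.07, adjusted p = 3.44e-08). The other genes within 1 Mb had medians in Pkd2-/- of 0.29 around Zfp106, 0.35 around Zfp408 and 0.59 around Zfp91.

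Chromosomes 2 and 19 were singled out after the values were seen, because the medians of their other genes were the highest in Pkd2-/- cells, at 0.37 over 811 genes and 0.29 over 400 genes. On the remaining autosomes and X these medians lay between -0.09 and 0.04. In Pkd1-/- cells the median of other genes was -0.18 over 675 genes on chromosome 5, which holds Zfp605 and Zfp932. It was 0.18 on chromosome 19. Of the 11 tested members on chromosome 2, 9 were higher in Pkd2-/- than in wild-type at an adjusted p under 0.05, none was lower, and their median was 0.48. They included Zfp217 (0.70 ± 0.08), Zfp334 (0.67), Zfp64 (0.51) and Zfp770 (0.36). Zfp341 had a value of -0.19 and was the member of this chromosome that lay below 0. In Pkd1-/- cells the same 11 had a median of -0.02. On all other chromosomes but 2 and 19, 51 members were higher and 49 lower in Pkd2-/- among 247. The part of the chromosome in the values of its members was not tested.

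**Figure D3:**
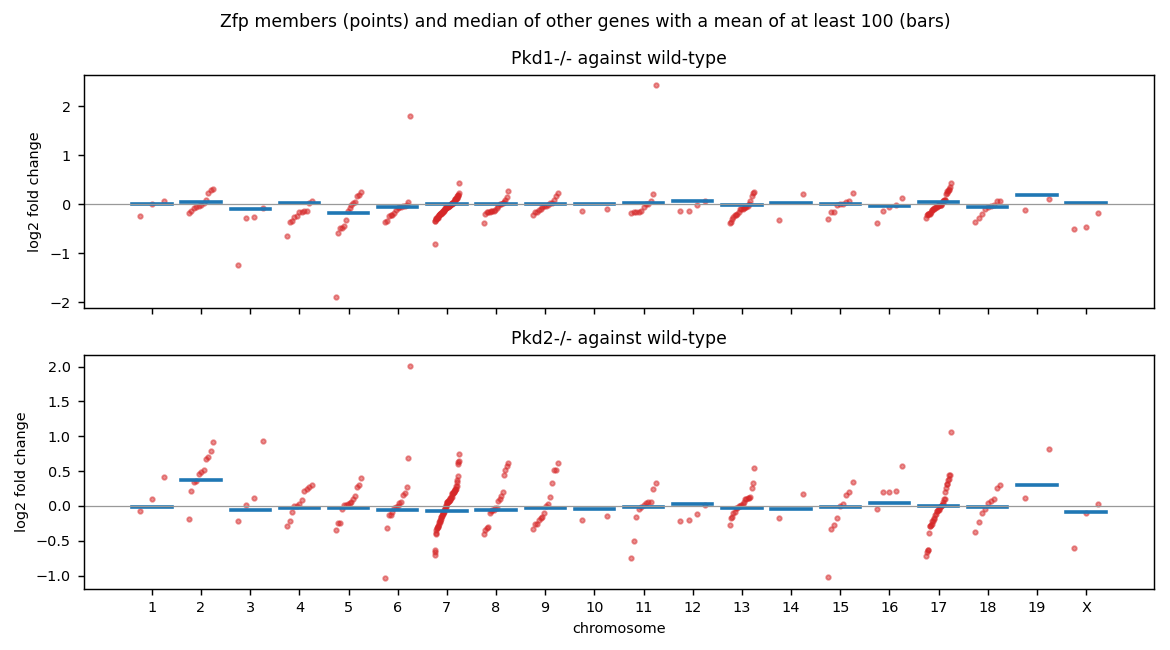
Log2 fold changes (vertical axis) of the 260 members (red points, sorted within a chromosome) by chromosome (horizontal axis), with the median of other abundant genes as blue bars, for Pkd1-/- (top) and Pkd2-/- (bottom) against wild-type. In Pkd2-/- cells the bars of chromosomes 2 and 19 stand at 0.37 and 0.29, and the members on chromosome 2 have a median of 0.48.

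Clusters were defined by chaining neighbouring Zfp genes at gaps of up to 500 kb and keeping runs of at least 3. This gave 32 clusters with 223 annotated Zfp genes, of which 161 were members. No cluster held 2 members called against wild-type. In clusters 3 members were called, Zfp467, Zfp647 and Zfp871, each in a cluster of its own. All 3 were called in Pkd2-/- cells, 1.88% of the 160 members in clusters other than Zfp709. This stands beside 9.62% of all genes and 5.68% of abundant genes. Zfp647 is counted although its selection was tied to its difference. Zfp709, described without a test, lies in another cluster, and Zfp9, Zfp37, Zfp605, Zfp704 and Zfp750 lay outside clusters. Among the 13 clusters with at least 5 members the cluster medians ran from -0.23 to 0.03 in Pkd1-/- and from -0.24 to 0.20 in Pkd2-/- cells. No member of these 13 was called in Pkd1-/- and 1 member was called in each of 2 of them in Pkd2-/- cells.

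The neighbours of Zfp709, named after their values were seen, differed little. Its cluster, chr8:71882019-71993792, holds 4 Zfp genes in a row, and all 3 that are members carry the KRAB pattern. Zfp617, the next member, had 324, 332, 358 and 295 normalized counts in wild-type, 377, 345, 320 and 273 in Pkd1-/- and 393, 358, 380 and 373 in Pkd2-/- libraries. Zfp961, at the other end, had 997, 947, 919 and 1005, then 990, 975, 936 and 985, and then 1012, 994, 1057 and 1079. The groups overlapped in both comparisons with wild-type for both genes. Log2 differences were 0.00 ± 0.09 and 0.20 ± 0.09 for Zfp617 and 0.01 ± 0.05 and 0.10 ± 0.05 for Zfp961, with adjusted p-values between 0.0951 and 1 by limma. For Zfp617, 44.0% of its 50-base stretches occur in another gene.

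The longest run of members was on chromosome 17, from Zfp160 to Zfp13 (21008903 to 23599487), with 22 members of 23 annotated genes, 19 of them with the KRAB pattern. In Pkd1-/- cells 3 of these were higher and 2 lower at an adjusted p under 0.05, with a median of -0.06, and in Pkd2-/- cells 5 were higher and 4 lower, with a median of -0.03. Their values in Pkd2-/- ran from -0.72 to 0.44. In the cluster from Zfp84 to Zfp146 on chromosome 7, with 12 members, 2 were lower in Pkd1-/- and none higher, while 2 were higher and 2 lower in Pkd2-/-. One of the higher genes was Zfp568, which represses a placental promoter of Igf2. The cluster of Zfp871 on chromosome 17 had 10 members, of which 2 were higher and 4 lower in Pkd2-/- cells. Among 6 members from Zfp551 to Zfp446 on chromosome 7, 3 were lower in each mutant and none higher. At this limit 27.1% of all genes and 37.0% of abundant genes passed in Pkd1-/-, and 42.3% and 59.3% in Pkd2-/- cells. The clusters were picked as examples after their values were seen, apart from the longest run, and nothing is read from their counts.

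**Figure D4:**
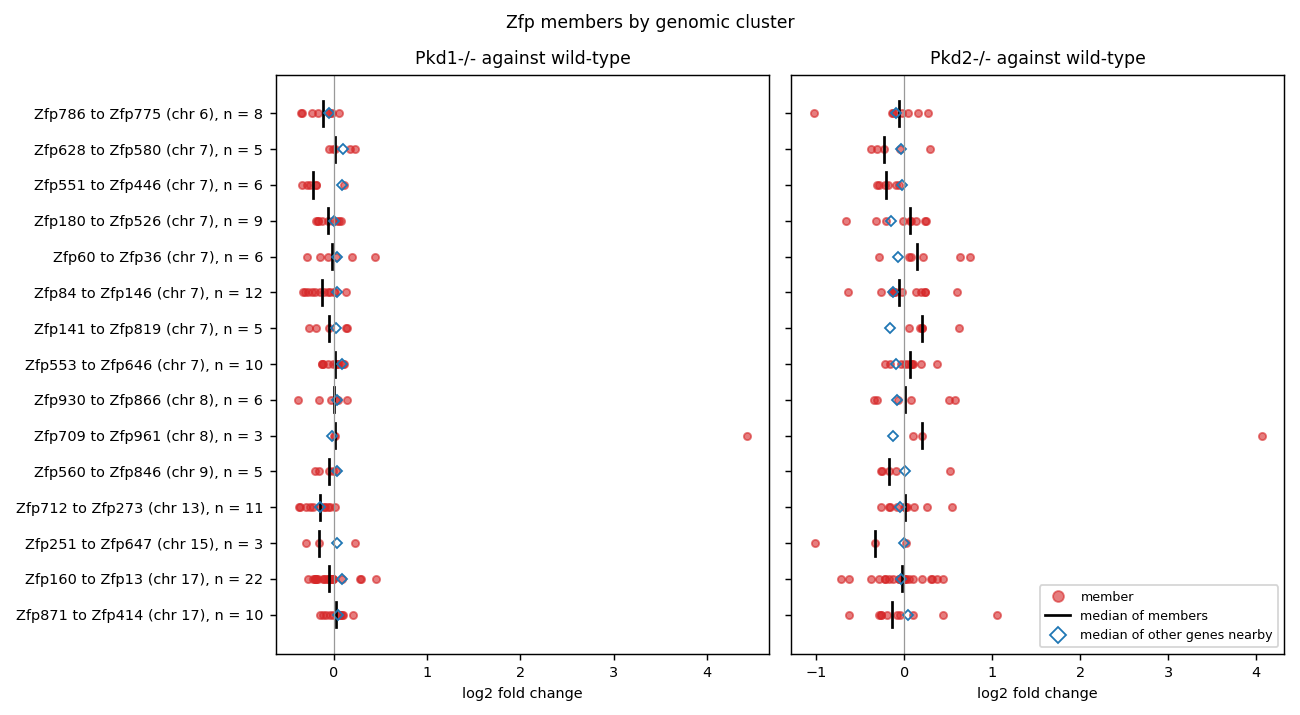
Log2 fold change (horizontal axis) of each member (red points) in the 13 clusters with at least 5 members and in the clusters of Zfp709 and Zfp647, for Pkd1-/- (left) and Pkd2-/- (right) against wild-type. Black bars are medians of the members, and open diamonds are medians of other genes within the cluster and 1 Mb on each side. Single points, such as Zfp709 at 4.43 and 4.07, stand away from cluster medians near 0.

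Sharper switches occurred among the 104 Zfp genes below the threshold, which the rule leaves out. Without Zfp709, 62 of these were tested. In Pkd1-/- cells 8 of the 62 were called, beside 6.24% of all genes, and in Pkd2-/- cells 13 of the 62, beside 9.62%. All genes include the abundant genes, of which only 2.84% and 5.68% were called, so this background is not matched in level to the 62. A gene that is low in 1 genotype is also more likely to fall below the threshold. Nothing is read from these shares. An 8-fold difference between 2 genotypes without overlap was found for 7 of the 63 tested with Zfp709 included. The share was 3.35% of all genes tested, which again include abundant genes with a lower share of 1.71%. Zfp709 is 1 of the 7. The others were named after their values were seen, no test is given for them, and nothing is read from their number. Zfp202, at chr9:40192316-40213604, had 140, 133, 138 and 141 normalized counts in wild-type, 58, 58, 53 and 65 in Pkd1-/- and 0 in all 4 Pkd2-/- libraries. Against a floor of 3 counts over the group it was at least 184-fold higher in wild-type and at least 78.0-fold higher in Pkd1-/- than in Pkd2-/- cells. Zfp109, in the chromosome 7 cluster from Zfp180 to Zfp526, had 37, 51, 42 and 54 in wild-type, 2, 1, 0 and 1 in Pkd1-/- and 0, 0, 1 and 0 in Pkd2-/- libraries. The wild-type sum exceeded that of Pkd1-/- by a ratio of 46.0, which is imprecise because the Pkd1-/- counts were so low. The 9 members of that cluster had medians of -0.06 and 0.06. None passed an adjusted p under 0.05 in Pkd1-/- cells. In Pkd2-/- cells 1 was higher and 2 were lower, with values from -0.66 to 0.24. Zfp111 of that cluster had 715, 635, 560 and 632 in wild-type and 377, 430, 405 and 387 in Pkd2-/- libraries.

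Zfp286 on chromosome 11 had 28, 19, 32 and 17 in wild-type and 0 in all 8 mutant libraries, at least 32.0-fold lower in each mutant. Zfp454, in the cluster from Zfp879 to Zfp2 on the same chromosome, had 12, 19, 18 and 12 in wild-type, 29, 27, 30 and 24 in Pkd1-/- and 0 in all Pkd2-/- libraries, at least 20.3-fold lower than wild-type. Both were thus undetected in every Pkd2-/- library, and Zfp286 also in every Pkd1-/- library. Zfp2, the 1 member in the cluster of Zfp454, was lower in Pkd2-/- than in wild-type cells, with a log2 difference of -0.74. It had 536, 548, 488 and 514 in wild-type, 476, 465, 493 and 405 in Pkd1-/- and 262, 331, 309 and 351 in Pkd2-/- libraries. Zfp951, at chr5:104813169-104860070, had 15, 14, 10 and 17 in wild-type, 0, 0, 0 and 3 in Pkd1-/- and 13, 22, 10 and 10 in Pkd2-/- libraries. Zfp493, in the cluster from Zfp712 to Zfp273 on chromosome 13, had 17, 26, 14 and 8 in wild-type, 5, 2, 4 and 7 in Pkd1-/- and 46, 63, 38 and 66 in Pkd2-/- libraries. It was lowest in Pkd1-/- and highest in Pkd2-/-, with a ratio of 11.8 between them.

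**Figure D5:**
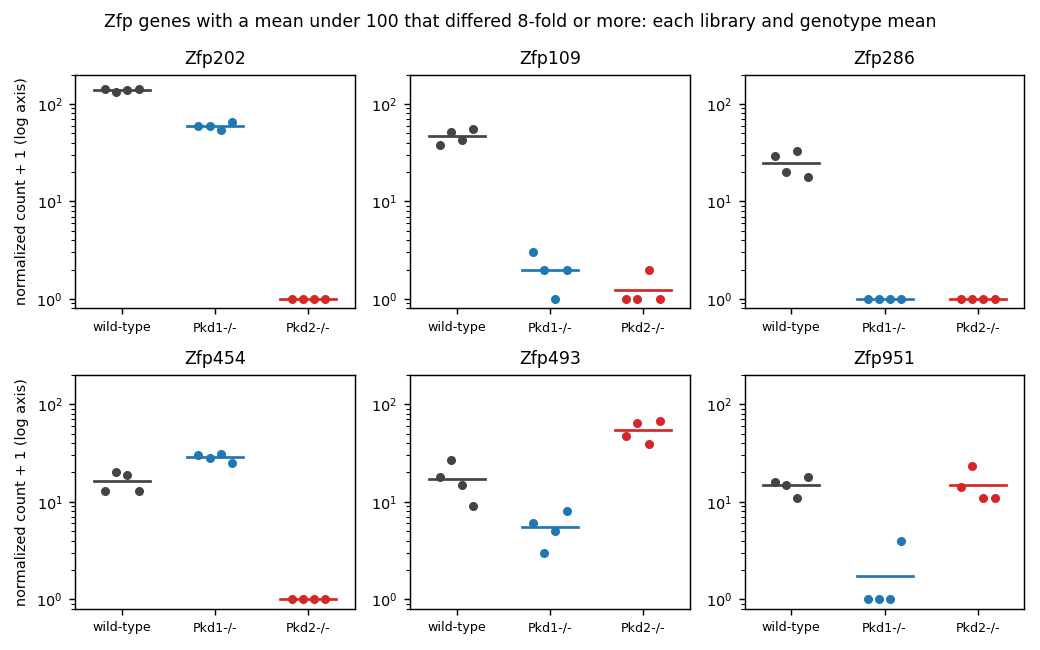
Normalized count + 1 (vertical log axis) of the 6 Zfp genes with a mean under 100, other than Zfp709, that differed by 8-fold or more between 2 genotypes, in 4 libraries of wild-type (grey), Pkd1-/- (blue) and Pkd2-/- cells (red), with bars at the genotype means. Points at 1 are libraries with no count, as in all Pkd2-/- libraries of Zfp202, Zfp286 and Zfp454.

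Members with and without a KRAB A box match were compared by counts. Zfp9, Zfp750, Zfp647 and Zfp28 stay in these counts, although their selection was tied to their differences. Among 124 tested members with a match, 5 were higher and 15 lower in Pkd1-/- cells at an adjusted p under 0.05 (16.1%), and among 136 without, 14 were higher and 26 lower (29.4%). In Pkd2-/- cells 24 were higher and 18 lower with a match, and 37 were higher and 31 lower without. The pattern used here was chosen after the data were seen. By the narrower first pattern 18.3% of 71 members with a match and 24.9% of 189 without passed in Pkd1-/- cells. In Pkd2-/- cells these shares were 31.0% and 46.6%. At this limit 27.1% of all genes and 37.0% of abundant genes passed in Pkd1-/-, and 42.3% and 59.3% in Pkd2-/- cells. Levels differed as well. The median was 98.6 normalized counts per kb with a match and 158 without, and the difference in shares was not tested. Median log2 fold changes were -0.08 and -0.05 in Pkd1-/- and 0.01 and 0.02 in Pkd2-/-. A missing match says only that the pattern was not found.

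The repression machinery used by KRAB proteins was represented by 23 genes, of which 8 were higher and 1 lower in Pkd1-/- and 7 higher and 7 lower in Pkd2-/- cells at an adjusted p under 0.05. At this limit 37.0% of abundant genes and 27.1% of all genes passed in Pkd1-/-, and 59.3% and 42.3% in Pkd2-/- cells. Nothing is read from the number of listed genes that passed. Trim28, the scaffold of the complex, averaged 14044 ± 515 (SD, n = 4) in wild-type cells, 14539 ± 313 in Pkd1-/- (log2 difference 0.05, adjusted p = 0.432 by limma) and 12845 ± 410 in Pkd2-/- cells (-0.13, adjusted p = 0.0193). Setdb1, which trimethylates lysine 9 of histone H3, had 4465 ± 149, 4230 ± 173 and 4328 ± 133 (adjusted p = 0.222 and 0.462). The gene of the list that was called was Atf7ip2, a relative of the Setdb1 partner Atf7ip. It fell from 35.8 ± 8.38 to 1.75 ± 1.50 in Pkd1-/- (log2 -3.84, adjusted p = 2.64e-07) and 7.00 ± 2.58 in Pkd2-/- (-2.23, adjusted p = 8.84e-05). Of 47 abundant Zbtb, Zkscan and Zscan genes, which form other zinc finger families, 4 were higher and 8 lower in Pkd1-/- and 17 higher and 6 lower in Pkd2-/- cells. The same background shares stand beside these counts. None of the 47 was called against wild-type, beside 2.84% of abundant genes in Pkd1-/- and 5.68% in Pkd2-/- cells.

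Members with known roles were grouped by function, and the 260 members and the background shares given above stand beside each count. Of 11 members that act on RNA, ribosomes or ubiquitin, 4 were higher and none lower in Pkd1-/-, and 6 were higher and none lower in Pkd2-/- cells, with medians of 0.07 and 0.19. Besides Zfp91 and Zfp106, both on chromosomes that were higher in general, Zfp598, the ubiquitin ligase that senses collided ribosomes, was higher in both mutants (0.22, adjusted p = 0.00225, and 0.39, adjusted p = 4.48e-06, by limma). Its promoter window, chr17:24669437-24669736, lies close to Pkd1 (chr17:24549834-24596508), the gene deleted in the Pkd1-/- line. The part of this position in its value was not tested. Zfp36 had 2533, 4104, 4373 and 4589 normalized counts in wild-type, 2711, 3469, 4229 and 4414 in Pkd1-/- and 4556, 5741, 5802 and 8081 in Pkd2-/- libraries. It was higher in Pkd2-/- by 0.64 ± 0.18 (adjusted p = 0.00772), although the lowest Pkd2-/- library was within the wild-type range. Zfp207 had differences of 0.07 and -0.04 (adjusted p = 0.312 and 0.554).

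Of 10 members that act as promoter factors, 2 were higher and 2 lower in Pkd1-/- and 2 higher and 3 lower in Pkd2-/- cells, and none was called. Zfp143, which binds many promoters and chromatin loop anchors, had differences of -0.03 and 0.07 (adjusted p = 0.737 and 0.304 by limma). Zfp260 was lower in both (-0.24 and -0.26, adjusted p = 0.00189 and 0.000457). Zfp148 had 4733 ± 374, 4701 ± 188 and 5437 ± 429 normalized counts in wild-type, Pkd1-/- and Pkd2-/- cells, and was higher in Pkd2-/- by 0.20 ± 0.06 (adjusted p = 0.0126).

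Members that control imprinting or retroelements went in different directions. Of 8 such genes 5 were members, with 1 lower in Pkd1-/- (Zfp932, above) and 2 higher and 1 lower in Pkd2-/- cells. Zfp57, which keeps methylation at imprinted loci, had 218, 288, 239 and 224 normalized counts in wild-type, 249, 294, 315 and 347 in Pkd1-/- and 135, 150, 145 and 181 in Pkd2-/- libraries. The Pkd2-/- libraries were below all others, with a difference of -0.66 ± 0.12 from wild-type (adjusted p = 0.000194, limma) and -0.97 ± 0.12 from Pkd1-/- (adjusted p = 1.99e-06). Zfp445, which acts at imprinted loci alongside it, was higher in Pkd2-/- cells (0.51 ± 0.16, adjusted p = 0.0144). Zfp568 was higher too, from 670 ± 74.6 to 1022 ± 204 (0.60 ± 0.11, adjusted p = 0.000161). Zfp809, which silences proviruses, had differences of -0.10 and 0.12 (adjusted p = 0.62 and 0.482).

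Of 14 developmental and chromatin regulators 10 were members. In Pkd1-/- cells 1 was higher and 3 were lower, with Zfp704 called, and in Pkd2-/- cells 5 were higher and none lower. The 5 were Zfp217 on chromosome 2, Zfp292, Zfp592, Zfp609 and Zfp703. Zfp703, a transcriptional repressor of the NET family, was higher in both mutants, by 0.27 in Pkd1-/- (adjusted p = 0.00096, limma) and 0.61 in Pkd2-/- (adjusted p = 2.91e-08). Zfp609, which works with the cohesin loader Nipbl, was 0.61 higher in Pkd2-/- (adjusted p = 7.08e-07) and differed by 0.02 in Pkd1-/- cells (adjusted p = 0.868).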

How the data were processed

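RNA-seq of mIMCD3 cells was analysed in 12 libraries, 4 for each of wild-type, Pkd1-/- and Pkd2-/-. The authors trimmed reads with Trim Galore, aligned them to mm10 with HISAT2, counted them per gene with htseq-count and divided by DESeq2 size factors. The strand setting and annotation release were not given in the sources used here. The deposited values are a score in this sense, normalized counts rounded to whole numbers, so no count model was used. Depth per library was estimated from gaps in the rounded values.

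Members were taken from GENCODE M21 (GRCm38), where 47223 of 47642 identifiers matched. The members, gene lists and tests were chosen with earlier results of these data known. limma 3.58.1 (R 4.3.3, lmFit and eBayes with trend) was fitted to log2(normalized count + 1) in all 12 libraries for 18552 genes with a mean of at least 1, with Benjamini-Hochberg adjustment within each of 3 comparisons. Tests are two-sided. Genes were called at an adjusted p under 0.05 and 2-fold. An exact permutation test of 4 against 4 libraries has 35 distinct two-sided outcomes and cannot go below 0.0286, so it was not used for calls. On simulated data for Pkd1-/- against wild-type, with 17882 genes, 168 of 196 changed genes were recovered, and all 112 with a mean of at least 100. In the same data 5 unchanged genes were called. Recovery of genes close to the 2-fold limit was not tested separately. Fold changes on this scale understate those of low genes.

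Finger and KRAB patterns were searched in translations of the longest GENCODE coding sequence of each gene, in place of RefSeq proteins. The KRAB pattern given is a broader one chosen after the data were seen, because the first pattern matched 72 members. Named genes are Zfp37 and Zfp709, switched members, members called in both mutants, the 8 largest non-overlapping changes per comparison with wild-type, the 5 highest per kb, called members of the functional lists, members at the threshold, and Trim28 and Setdb1. Further genes are named as examples of the functional lists, of chromosome 2 and of clusters (the mates of Zfp709 included), and were chosen after their values were seen. Same-numbered libraries of different genotypes deviated together with correlations of -0.07 to 0.20, and the labels do not pair them. Of the members, 119 overlap another annotated gene and 36 share over 10% of their 50-base stretches with another gene. Alternatives comprised pseudocounts, filters, scaling, weights, a replicate block, other thresholds and gaps, and leaving out each library.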

Additional observations from a re-analysis of the deposited data

Results flagged for a closer look

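In 3 of 69 gene and genotype groups, among the 23 named members, 1 of 4 libraries stood apart from the others, where chance gives about 1 in 20. The gap to the nearest library, as a share of the group's range, was 0.895 for Zfp647 in Pkd2-/- cells, where 1 library had 78 normalized counts and the others 95 to 97. It was 0.868 for Zfp697 in wild-type cells, with 820 against 653 to 675. For Zfp9 in Pkd1-/- cells it was 0.854, with 165 against 124 to 130.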

How the results depend on the processing

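For counts of called members, the lists of 4 (Pkd1-/- against wild-type) and 5 (Pkd2-/- against Pkd1-/-) were all recovered under pseudocounts of 0.5 and 5, no filter, a mean of at least 10, the 2 genotypes alone, upper quartile rescaling, voom weights and the replicate block. Leaving out single libraries gave 4 to 4 and 5 to 7 calls. For Pkd2-/- against wild-type 4 were called, 3 with a pseudocount of 5 (Zfp647 lost), and 2 to 5 without single libraries, with 2 without wild-type replicate 2 (Zfp467 and Zfp871 lost). Without a fold threshold the counts were 60, 110 and 119. With members at a mean of at least 200 (225 genes) they were 2, 2 and 3, with a mean of at least 50 (287 genes) 5, 6 and 6, and without Zfp9 and Zfp750, an alternative chosen after the data were seen, 2, 3 and 4. The replicate block gave 4, 4 and 5 calls, and it changed no other call. Switched members numbered 1, but 3 at 4-fold (with Zfp750 and Zfp9), 2 at a mean of at least 50 (with Zfp202), and 1 to 2 without single libraries, where Zfp750 was added without Pkd1-/- replicate 2, Pkd2-/- replicate 3 or Pkd2-/- replicate 4. Called members in clusters, Zfp709 not counted, were 3, and 2 at 250 kb or 4 at 1 Mb gaps. The alternatives were run for these counts and for the 23 named genes, and none of those reversed direction. The other genes and the chromosome and cluster medians were not recomputed. Counts under about 3 per library, as for Zfp709 in wild-type, limit the precision of ratios.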
